A study of Drosophila melanogaster with 12 samples.

Results

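On chromosome arm 2L of Drosophila melanogaster, 276 protein-coding genes were kept whose 2 most used 3'UTR poly(A) sites lay less than 150 nt apart. They were found from read positions alone: positions within 24 nt of the next one on a strand were joined, step by step, into a site. The 2 sites past the last coding base (up to 1000 nt past the gene end) with the highest mean CPM (read counts scaled to a common library size) over 12 libraries were taken as the pair. A pair was kept when it had a mean of at least 20 reads per library and when its minor site held at least 5% of its reads, by the mean of the shares per library. A library entered that mean from 1 read on, so a single read could carry a pair past the minimum. Arpc1 (98.4% to 100% distal) and CG6700 (94.8% to 99.8%), by libraries with at least 5 reads, passed through a library with 1 read. With the minimum taken by mean CPM, 215 of the 276 stayed. Of 741 such pairs on 2L, 276 lay under the limit and 465 lay 150 nt or more apart, 61 of these 1000 nt or more. No contrast between groups entered this choice, though a pair could meet the 5% minimum through a single group.

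A nascent transcript is cut and given a poly(A) tail at a poly(A) site, which the cleavage machinery recognises through short sequence elements on both sides of the cut. When several sites follow each other within one terminal exon they are called tandem sites, and their use changes the length of the 3'UTR but not the protein. A longer 3'UTR can carry more binding sites for RNA-binding proteins and microRNAs, and neural tissue of flies is known for long 3'UTRs. The products of sites this close together differ by a short piece of 3'UTR. The speed of RNA polymerase II is known to affect the choice between a first and a later site.

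The assays were 3'READS and its variant 3'READS+. They select polyadenylated RNA fragments, and the position of a read gives where its transcript was cut. The material was heads and bodies dissected from adult flies of strain w1118, taken as wild type, and of RpII215 flies with the C4 allele of the gene for the largest subunit of RNA polymerase II, an allele known for slow elongation. There were 4 libraries of wild-type heads, 4 of wild-type bodies, 2 of mutant heads and 2 of mutant bodies, and the labels state neither the age nor the sex of the flies. The labels do not say whether replicates came from separate flies. The p-values therefore refer to the spread among libraries, which may be technical. Sample numbers fall into 2 distant ranges: block 1 holds wild-type replicates 1 and 2 of both tissues, and block 2 holds wild-type replicates 3 and 4 and every mutant library. Whether both genotypes share a strain background is not stated, so the allele and the stock cannot be told apart.

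Total reads per library ranged from 2219693 to 9062730. Photoreceptor and accessory gland markers separated the dissected tissues: the summed level of 4 photoreceptor genes was 24883 to 105221 CPM in heads and 27.0 to 4971 in bodies, and that of 2 accessory gland genes 12.2 to 198 CPM in heads and 5275 to 7638 in bodies. Neuronal genes (3019 to 5239 against 391 to 893 CPM) and gut genes (49.7 to 229 against 573 to 2380 CPM) also did, while 2 muscle genes (411 to 1022 CPM in heads, 693 to 6996 in bodies) and 1 fat body gene (31.6 to 1120 and 70.3 to 14752) overlapped. Over the member pairs with at least 10 reads, the distal shares of 2 libraries followed the block, and in block 1 the replicate number more than the tissue. Pearson's r was 0.91 between head and body of wild-type replicate 1 (163 pairs) and 0.76 between heads of replicates 1 and 2 (124 pairs), while in block 2 it was 0.98 between heads of replicates 3 and 4 (194 pairs) and 0.93 between head and body of replicate 3 (196 pairs). Between the blocks r lay between 0.41 and 0.69. The body library of mutant replicate 1 also stood apart, with r of 0.84 against the other mutant body library, where the mutant heads gave 0.99 (201 pairs), and with 4.50% of reads on the mitochondrial genome against 22% in that library. Of 91 members with at least 10 reads in all 8 wild-type libraries, 38 had no overlap between the blocks, 17 with more and 21 with less distal use in block 1. The same count was not made for the farther pairs, so it describes these libraries and is no trait of close sites. A share is given below for each library with at least 5 reads at the pair, and limits drawn from a count of 0 cover counting error only, since the reads carry no molecular identifiers.

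The sites of a pair lay 29 to 149 nt apart, with a median of 100 nt. The proximal site lay a median of 134 nt past the stop codon and the distal site 232.5 nt past it, whereas in the 465 farther pairs these medians were 196 and 620 nt. Both sites together took a median of 98.7% of the 3'UTR reads of the gene (95.3% in farther pairs), and 35 members had no other site. The distal site was the major one in 129 members and the proximal in 147, and the minor site held at least 25% of reads in 113. Each bin of 10% on the scale of distal shares held 20 to 38 members, as the plot of distances and shares shows.

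**Figure D1:**
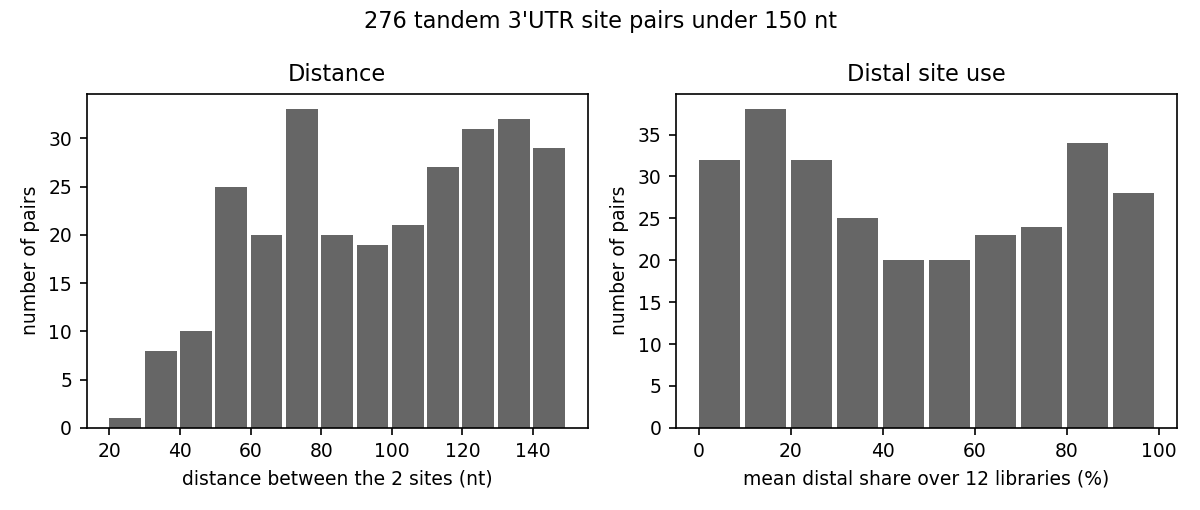
Left, number of the 276 pairs by the distance between their sites in bins of 10 nt. Right, number of pairs by the mean share of reads at the distal site over the 12 libraries, in bins of 10%. Distances run from 29 to 149 nt, and shares spread over the whole range that the 5% minimum allows.

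Which site was stronger went with the annotation. In 112 members an annotated transcript end lay within 10 nt of the distal site only, in 89 of the proximal site only, in 21 of both and in 54 of neither. The median distal share was 73.5% in the first of these classes and 21% in the second, with 36.1% and 51.8% in the other two. The distal site lay past the annotated gene end in 189 members, though often by a few bases (median 3 nt, highest 176 nt). The annotation is of a later build and rests on other data, so this is a description of how these reads meet it.

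Distal use over the members was somewhat higher in heads than in bodies. Of 233 members with a share in both wild-type tissues, 148 were higher in heads, and the median of head minus body within a pair was 3.22 percentage points (1.08 in block 1 with 114 of 199 higher, and 3.43 in block 2 with 148 of 223). In the mutant it was 4.50 points, with 161 of 233 higher. The farther pairs had 10.2 points in wild type, with 351 of 437 higher, and 12.4 points in the mutant. Within a member the median SD over 4 wild-type libraries was 11.2 points in heads and 11.1 in bodies. Medians over the members, 170 to 268 per library and not the same in each, lay farther apart. The median distal share was 60%, 46.8%, 49.3% and 50% in the wild-type head libraries of replicates 1 to 4 and 40%, 36%, 42% and 41.9% in the body libraries. Mutant heads had medians of 50.5% and 44.6% and mutant bodies 32.9% and 32.9%. Each head library thus lay above each body library. As means the groups had 51.5 ± 5.81% (SD, n = 4) and 40 ± 2.79% (n = 4) in wild type, and 47.5 ± 4.17% and 32.9 ± 0.0127% (n = 2 each) in the mutant. By block, wild-type heads and bodies had 53.4% and 38% in block 1 and 49.7% and 42% in block 2. In the 465 farther pairs the same means were 69.6 ± 4.74% and 33.7 ± 4.93% in wild type and 65.9 ± 4.85% and 27.5 ± 1.49% in the mutant. Over the 123 members with at least 5 reads in all 12 libraries the means of the library medians were 48.2 ± 4.22% and 35.6 ± 4.73% in wild type and 42.4 ± 1.37% and 31.0 ± 0.688% in the mutant, heads first. These medians are scores over members and carry no test.

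**Figure D2:**
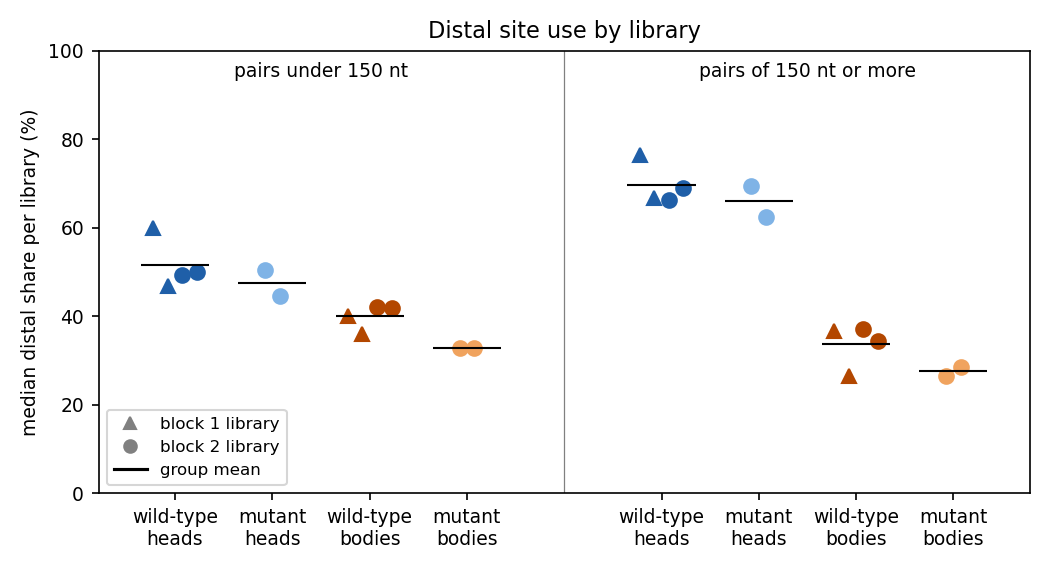
Median share of pair reads at the distal site (vertical axis, %) in each library, for the 276 pairs under 150 nt (left) and the 465 farther pairs (right). Triangles are block 1 and circles block 2 libraries, and lines are group means. Members differ between libraries, and the median difference within a member was 3.22 points where the wild-type means on the left are 51.5% and 40%.

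To ask how close sites differ between tissues, reads at the distal and the proximal site were set against each other in wild-type heads and bodies. Of the 276 members 17 were called (edgeR quasi-likelihood test, adjusted p under 0.05 over all 910 fitted pairs of 2L and 3L), all 17 with more distal use in heads. That is 6.16% of members, beside a background of 17.7% of all pairs. More distal use in heads was called in 17.6% of all pairs, and less in 0.11%, with no member among them. The median log2 change of the distal-to-proximal ratio was 0.40 over members and 0.95 over all pairs. At an unadjusted p under 0.05 there were 33 members, and 260 of all 910 pairs. In bulk tissue a shift of this kind within cells and a different mix of cells cannot be told apart, and fewer cells of a type cannot be told from less RNA per cell.

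loqs, which encodes a double-stranded RNA-binding partner of Dicer, had the smallest p. The pair spans 125 nt on the plus strand of 2L, from 13385547 (proximal) to 13385672 (distal, at an annotated end), in coordinates of BDGP5, the build of the files. The distal share was 95.3%, 94.8%, 94.5% and 95.1% in wild-type heads and 35.3%, 26.1%, 20.7% and 25.2% in bodies. Of the reads at the pair, heads thus had nearly all at the second site and bodies a minority, with no overlap and 96 to 773 reads per library. The log2 change was 5.71 (SE 0.45, edgeR adjusted p = 0.000409).

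Rab14, a small GTPase of vesicle traffic, has sites 135 nt apart at 14358631 and 14358766. Heads used the distal site for 99.5%, 99.7%, 96.1% and 92.6% of reads and bodies for 89.3%, 94.9%, 61.3% and 42.1% (log2 change 4.19, SE 0.56, edgeR adjusted p = 0.00162). The tissues were apart within each block, but the head library of replicate 4 lay below the body library of replicate 2. qtc, a coiled-coil protein known from male courtship, has sites 103 nt apart, both at annotated ends. Its distal share was 78.1%, 79.8%, 52.6% and 56.5% in heads and 21.5%, 32%, 14.4% and 9.88% in bodies (3.26, SE 0.44, edgeR adjusted p = 0.00162), again with no overlap.

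In pigeon, a gene known from flies with impaired learning, in CG15435 and in CG15141 the distal site took nearly all reads of heads. pigeon used it for 100%, 99% and 100% in the 3 head libraries with reads and for 21.4%, 0%, 55.4% and 45.6% in bodies (log2 change 7.90, SE 1.18, edgeR adjusted p = 0.00329), where the library at 0% had 8 reads. CG15435 had 91.2% to 100% in 3 head libraries and 9.43% to 29.9% in 4 body libraries (5.87, SE 0.88, edgeR adjusted p = 0.00221). CG15141 had 95.8% to 100% and 52.3% to 76.9% (4.80, SE 0.81, edgeR adjusted p = 0.00424). None of the 3 overlapped between tissues.

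Cdk5alpha, the activating partner of the neuronal kinase Cdk5, had 96.3% to 100% in heads and 71.4%, 68.4% and 62.9% in the 3 body libraries with reads (log2 change 6.48, SE 1.33, edgeR adjusted p = 0.0102). Its body values rest on 7 to 35 reads, and without the body library of replicate 3 or of replicate 4 the adjusted p was 0.0541 to 0.0678. capu, a formin that nucleates actin, was already mostly distal in bodies, with 86% to 94.2%, and reached 98.5% to 99.8% in heads (3.30, SE 0.60, edgeR adjusted p = 0.00613).

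FucTB and TTLL4A were mainly proximal in both tissues and shifted from that side. FucTB, a fucosyltransferase, used its distal site for 30%, 16.7%, 10% and 50% of reads in heads, from 6 to 20 reads per library, and for at most 0.418% in bodies (7.15, SE 1.05, edgeR adjusted p = 0.00196). TTLL4A, of a family that modifies tubulin, had 8.06%, 9.09%, 23.8% and 21.9% in heads and 0.885%, 0%, 4.43% and 4.18% in bodies (3.03, SE 0.56, edgeR adjusted p = 0.00639). FucTB reached the 5% minimum through its head libraries alone, so its difference between tissues follows from its choice. In capu, Cdk5alpha, CG15141 and pigeon no head library with at least 5 reads, of either genotype, held 5% at the proximal site. Those pairs met the minimum through their body libraries, so their differences are likewise tied to the choice. By mean CPM 4 of the 17 called members (Cdk5alpha, FucTB, Rab14 and Rsph1) had a minor site under 5%. FucTB and TTLL4A were apart between the tissues in all libraries, and in TTLL4A the block moved the level on both sides.

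The other 7 called members were mib2, an E3 ubiquitin ligase, Ubc2, a ubiquitin-conjugating enzyme, eIF4A, the RNA helicase of translation initiation, Rsph1, a radial spoke protein of cilia, and CG15387, CG17378 and CG17328. Of these, all but eIF4A fall outside the naming rule and were chosen after their values were seen. mib2 had 83.7 ± 2.99% in heads and 55.3 ± 10.2% in bodies (n = 4 each, log2 change 2.06, adjusted p = 0.0120). Ubc2 had 90.9% and 80% in the 2 head libraries with reads, from 11 and 5 reads, and 24.3 ± 21.5% in bodies (n = 4). Rsph1 was called on 13 head reads in block 2, with 16.7% and 0% there, and has the highest adjusted p of the 17 (0.0449). By libraries with at least 5 reads, no body library of Rsph1 held 5% at the distal site. No such head library of CG17328 or CG15387 held 5% at the proximal site, so the choice favoured these differences as well.

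**Figure D3:**
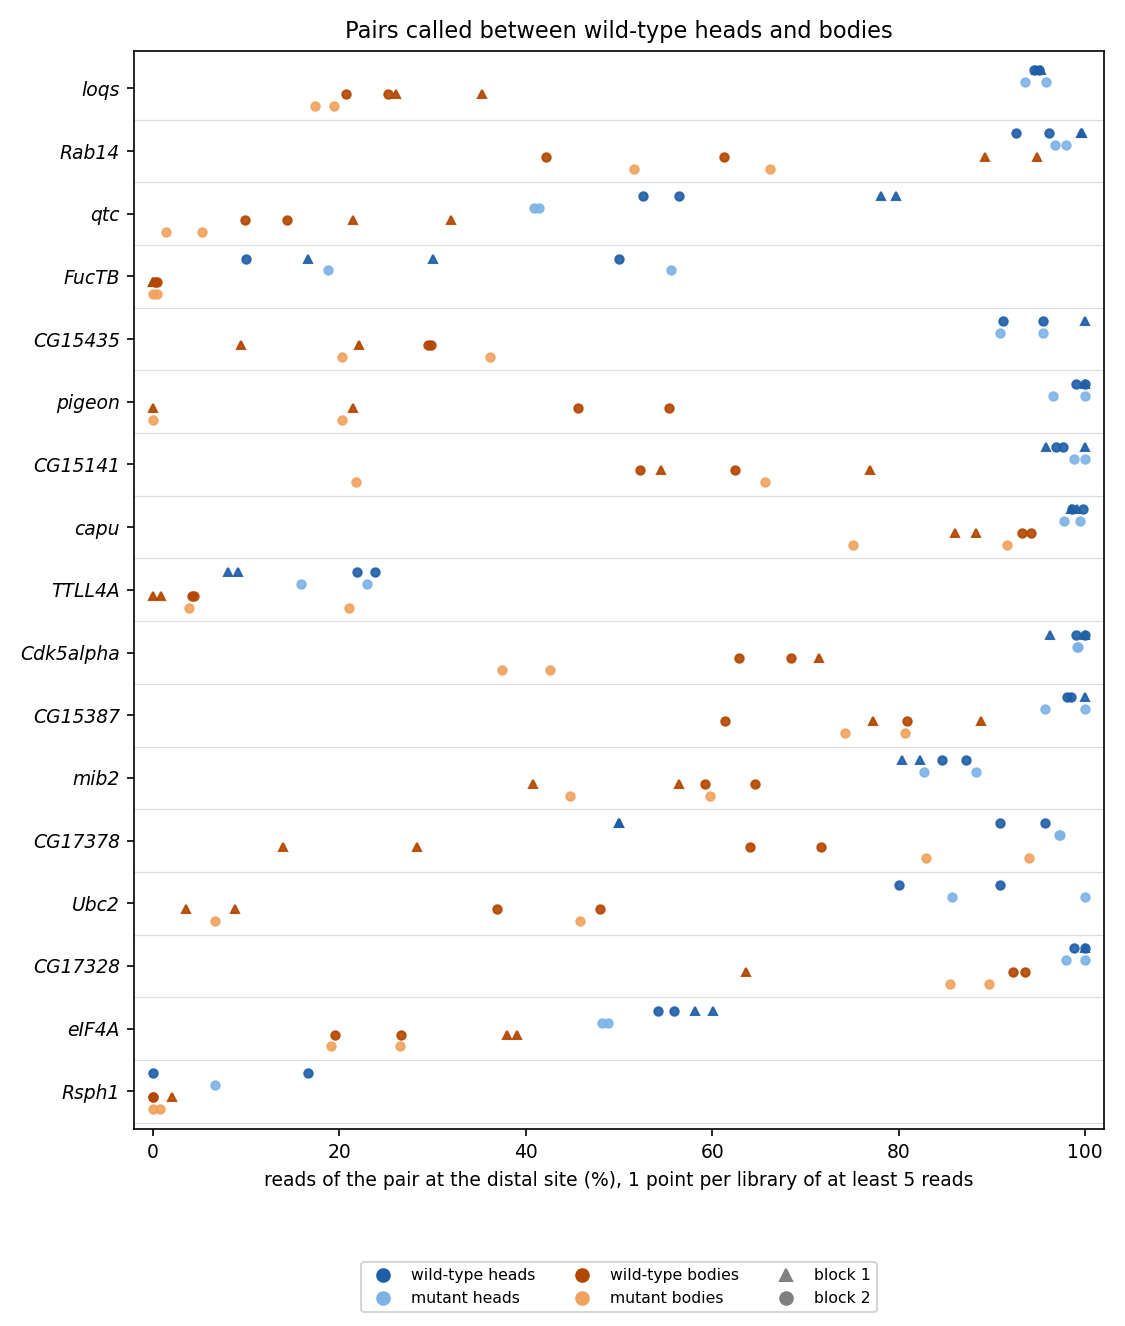
Share of pair reads at the distal site (horizontal axis, %) for the 17 pairs called between wild-type heads and bodies, by smallest p from the top, 1 point per library with at least 5 reads. Triangles are block 1 and circles block 2. In loqs the head libraries of both genotypes sit at 93.6% to 95.9% and the body libraries at 17.3% to 35.3%.

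Of the 17 calls 15 had values in both blocks, and in all 15 the tissues differed in the same direction in each. With the replicate number as a block 52 members were called, 46 of them toward the distal site in heads (background 37.4%), though the numbers were seen to pair head with body in block 1 only. In block 2 alone 50 were called and in block 1 alone 0, and without a term for the block 5. Shares over all pairs were not taken for these fits. Without a single library of replicates 3 or 4 the count fell to 9 to 11, and 9 of the 17 were called in every such fit (loqs, Rab14, qtc, FucTB, CG15435, pigeon, CG15141, capu and TTLL4A). DESeq2, which scales each site column by itself and so removes the shared shift (the median of all pairs moved from 0.95 to -0.05), called 17 members, 11 toward the distal site and 6 toward the proximal (background 12.4%).

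Mutant flies showed the same direction between tissues. Of the members 37 were called between mutant heads and bodies, 36 with more distal use in heads and 1 with less, which is 13.4% of members beside 26.4% of all pairs (25.9% distal and 0.44% proximal). The median log2 change was 0.71 over members and 1.38 over all pairs. An unadjusted p under 0.05 was found in 60 members, and in 325 of all 910 pairs. Of the 17 wild-type calls 15 were among these 37 with the same direction. That is 88.2% of the first list and 40.5% of the second. The groups compared share no library, but the wild-type libraries of block 2 also entered the spread of the mutant fit. All 12 libraries entered the choice of the pairs. The same overlap over all pairs was not counted, so these shares are no trait of close sites.

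loqs had 95.9% and 93.6% in mutant heads and 17.3% and 19.4% in mutant bodies (log2 change 6.34, SE 0.55, edgeR adjusted p = 4.19e-06). Cdk5alpha had 99.2% and 99.2% against 37.5% and 42.6% (7.42, SE 0.92, edgeR adjusted p = 4.54e-05), and pigeon 100% and 96.6% against 0% and 20.2% (8.22, SE 1.19, edgeR adjusted p = 0.000158). Rab14 had 96.8% and 97.9% against 51.6% and 66.2% (4.67, SE 0.68, edgeR adjusted p = 0.000167). All 4 had the direction of the wild-type difference, with no overlap between tissues.

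CG5149 was called in the mutant and not in wild type, a difference that the interaction test below did not call. Mutant heads had no proximal read among 600 (295 and 305 per library), which allows a proximal share of up to 0.50%, and mutant bodies used the distal site for 76.2% and 90.7% (edgeR adjusted p = 0.000241). Wild-type values were 66.7%, 90%, 97.3% and 95.6% in heads and 83.3%, 100%, 94.9% and 90.7% in bodies. Scox, which encodes a copper chaperone of cytochrome oxidase, was the single call toward the proximal site in heads, with 22.6% and 20.2% in mutant heads and 87.6% and 36.3% in mutant bodies (log2 change -2.83, SE 0.93, edgeR adjusted p = 0.0363). Its body libraries lie far apart, and without either head library the adjusted p was 0.112 and 0.141.

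The count of 37 fell to 17 and 22 without the first and the second mutant head library, and rose to 82 without the body library of replicate 2. In every such fit 15 of the 37 were called. DESeq2 called 40 members, 14 toward the distal site and 26 toward the proximal (background 22.4%), with the median of all pairs moved from 1.38 to -0.03.

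To ask whether the polymerase allele changes the choice between close sites, mutant heads and bodies were each compared with wild type of block 2, 2 libraries against 2. In heads 8 members were called, 4 toward the distal and 4 toward the proximal site, which is 2.90% of members beside 3.74% of all pairs (1.32% distal and 2.42% proximal). In bodies 17 were called, 7 toward the distal and 10 toward the proximal site, 6.16% beside 5.27% (1.65% distal and 3.63% proximal). Median log2 changes over members were -0.02 in heads and -0.18 in bodies, beside -0.03 and -0.35 over all pairs. The members thus moved in both directions, at shares near the background. On simulated data these contrasts recovered 5 and 3 of 100 changes of log2 size 2, so most changes of that size could be missed.

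CG31717 had the smallest p in both tissues. The proximal site is at 10251595 and the distal at 10251717, 122 nt farther, both at annotated ends. Mutant heads used the distal site for 0.697% and 0.667% of reads and mutant bodies for 0.228% and 0.272%, from 287 to 438 reads per library. Wild-type heads had 78.9%, 9.68%, 55.1% and 50% and wild-type bodies 71%, 20%, 60% and 38.6%. Every mutant library lay below every wild-type library of either block (log2 change -7.25, SE 0.74, edgeR adjusted p = 6.85e-05 in heads, and -8.44, SE 0.81, adjusted p = 3.56e-05 in bodies).

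CG16974, which overlaps the pair of Rsph1 on the opposite strand (strands were counted apart), moved the other way in both tissues. Mutant heads used the distal site for 99.8% and 99.7% and mutant bodies for 100% and 100% (proximal share up to 1.83% by a count of 0), while wild type had 82.3%, 83.9%, 93.1% and 87.7% in heads and 85.2%, 75%, 91.7% and 92.8% in bodies. Each mutant library again lay above each wild-type library (5.18, SE 0.79, edgeR adjusted p = 0.00150 in heads, and adjusted p = 0.0322 in bodies). This pair, too, met the 5% minimum through its wild-type libraries. The call in bodies was lost without either wild-type body library or the second mutant body library (adjusted p 0.159 to 0.397). Rbsn-5, an effector of Rab5 in endosome fusion, had 33.6% and 22.9% in mutant heads against 5.19% and 2.56% in block 2 heads (3.23, SE 0.78, edgeR adjusted p = 0.0316), and 37.2% and 30.5% in mutant bodies against 2.20% and 5.21% (3.66, SE 0.78, adjusted p = 0.0128). Block 1 bodies, at 28.6% and 21.1% from 7 and 19 reads, lay nearer to the mutant.

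CG5177 and Ns4 were called in both tissues with block 1 on the side of the mutant. CG5177 had 98.5% and 98.8% in mutant heads, 68.1% and 71.2% in block 2 heads and 100% and 100% in block 1 heads (4.95, SE 0.62, edgeR adjusted p = 0.000214 against block 2). Bodies had 98.8% and 98.8%, 68.7% and 80.6%, and 100% and 100% in the same order (4.75, SE 0.59, adjusted p = 0.000290). Ns4, a nucleostemin-family GTPase, had 8.19% and 14.7% in mutant heads, 42.1% and 40.3% in block 2 heads and 1.31% and 0% in block 1 heads (-2.47, SE 0.56, edgeR adjusted p = 0.0220). In bodies it had 7.86% and 5.59%, 34.8% and 43%, and 3.94% and 0% (-3.15, SE 0.58, adjusted p = 0.00435). In both genes the mutant lay between the blocks of wild type, and the part of the block in these results was not tested. Only the block 2 wild-type libraries held 5% at the proximal site of CG5177, so that pair met the minimum through them.

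Aldh, an aldehyde dehydrogenase and the member with most reads, also had the mutant heads between the blocks. Its distal share was 9.04% and 8.69% in mutant heads, 58.6% and 64.4% in block 2 heads and 1.88% and 1.15% in block 1 heads (log2 change -4.04, SE 0.94, edgeR adjusted p = 0.0236). The block 1 heads had 16900 and 8408 reads at the pair, the block 2 heads 835 and 621 and the mutant heads 2300 and 2197. In bodies the mutant libraries had 39.5% and 3.57%, block 2 had 38% and 44.2% and block 1 had 1.74% and 0.532% (not called, adjusted p = 0.300).

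The remaining head calls were CG5149, described above, with 100% and 100% in mutant heads against 97.3% and 95.6% (edgeR adjusted p = 0.0226), and CG9150, with 42.9% and 71.4% against 99.3% and 99% (-6.42, SE 1.27, edgeR adjusted p = 0.0131). CG9150 had 7 reads in each mutant head library and 287 and 198 in the wild type of block 2. With any single head library of block 2 left out, the calls of CG5149 (adjusted p 0.0610 to 0.182), Rbsn-5 (0.105 to 0.347), Ns4 (0.0742 to 0.354) and Aldh (0.161 to 0.237) were lost. CG9150 lost its call without either wild-type library or the first mutant library (0.0647 to 0.288). CG31717, CG5177 and CG16974 were called in every such fit, and in a fit of the 4 head libraries alone 45 members were called.

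Further body calls were CG13989, CG14931 and CG11912, of which CG13989 moved toward the distal and the other 2 toward the proximal site. CG13989 used the distal site for every read in mutant bodies, 59 and 469 of them (proximal share up to 0.568%), and for 61.3% and 67.8% in block 2 (edgeR adjusted p = 0.000310), with 100% and 82.4% in block 1. CG14931 had no distal read among 29 and 71 in mutant bodies, which allows a share of up to 3%, and 86.7% and 81.5% in block 2 (adjusted p = 0.000310). Its block 1 bodies were split, at 0% and 75% from 9 and 8 reads. CG11912 had 0.645% and 0.356% in the mutant, 25.4% and 25.7% in block 2 (-6.04, SE 0.92, edgeR adjusted p = 0.00217) and 0% and 0% in block 1. Since mutant bodies used nearly a single site in each of these pairs, other libraries carried them past the 5% minimum.

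phr6-4, a photolyase that repairs ultraviolet damage, ended at the proximal site in all 4 wild-type body libraries, with no distal read among 190 (a share of up to 1.58%). The mutant bodies used the distal site for 56.4% and 72%, from 39 and 25 reads (edgeR adjusted p = 0.00237, 0.0851 without the body library of wild-type replicate 4), and the mutant heads for 100% and 100% from 15 reads each. With no distal read in wild-type bodies, other libraries carried phr6-4 past the minor-site minimum. Its difference in bodies is therefore tied to the choice. CG31659 had 93.2% and 57.7% in mutant bodies and 99.3% and 100% in block 2 (-6.35, SE 1.34, adjusted p = 0.0135). No wild-type library of CG31659 reached the minor-site minimum at the proximal site. The pair met that minimum through mutant libraries, so its difference is tied to the choice. Gpo3, a glycerol-phosphate oxidase paralog, had 33.3% and 8.33% from 9 and 12 reads in the mutant and 0.608% and 0.202% from 658 and 991 reads in block 2 (6.01, SE 1.34, adjusted p = 0.0200). Block 1 bodies of Gpo3, at 52.6% and 88.9% from 19 and 9 reads, lay on the side of the mutant.

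Several other body calls rested on a group with hardly any reads. Ts, the thymidylate synthase, had 192 and 159 reads in mutant bodies and 2 and 5 in block 2 bodies. Spn28Da, a serpin, had 105 and 172 against 3 and 2. Acp29AB, a seminal fluid protein, had 0 and 3 reads in mutant bodies against 182 and 162. In these 3 genes the share of the thinner group is hardly known. The others were Cyp4e3, a cytochrome P450, Tmtc2 and FASN2, a fatty acid synthase, which had no distal read among 2970 in mutant bodies (a share of up to 0.101%) and 0.496% and 0.346% in block 2.

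**Figure D4:**
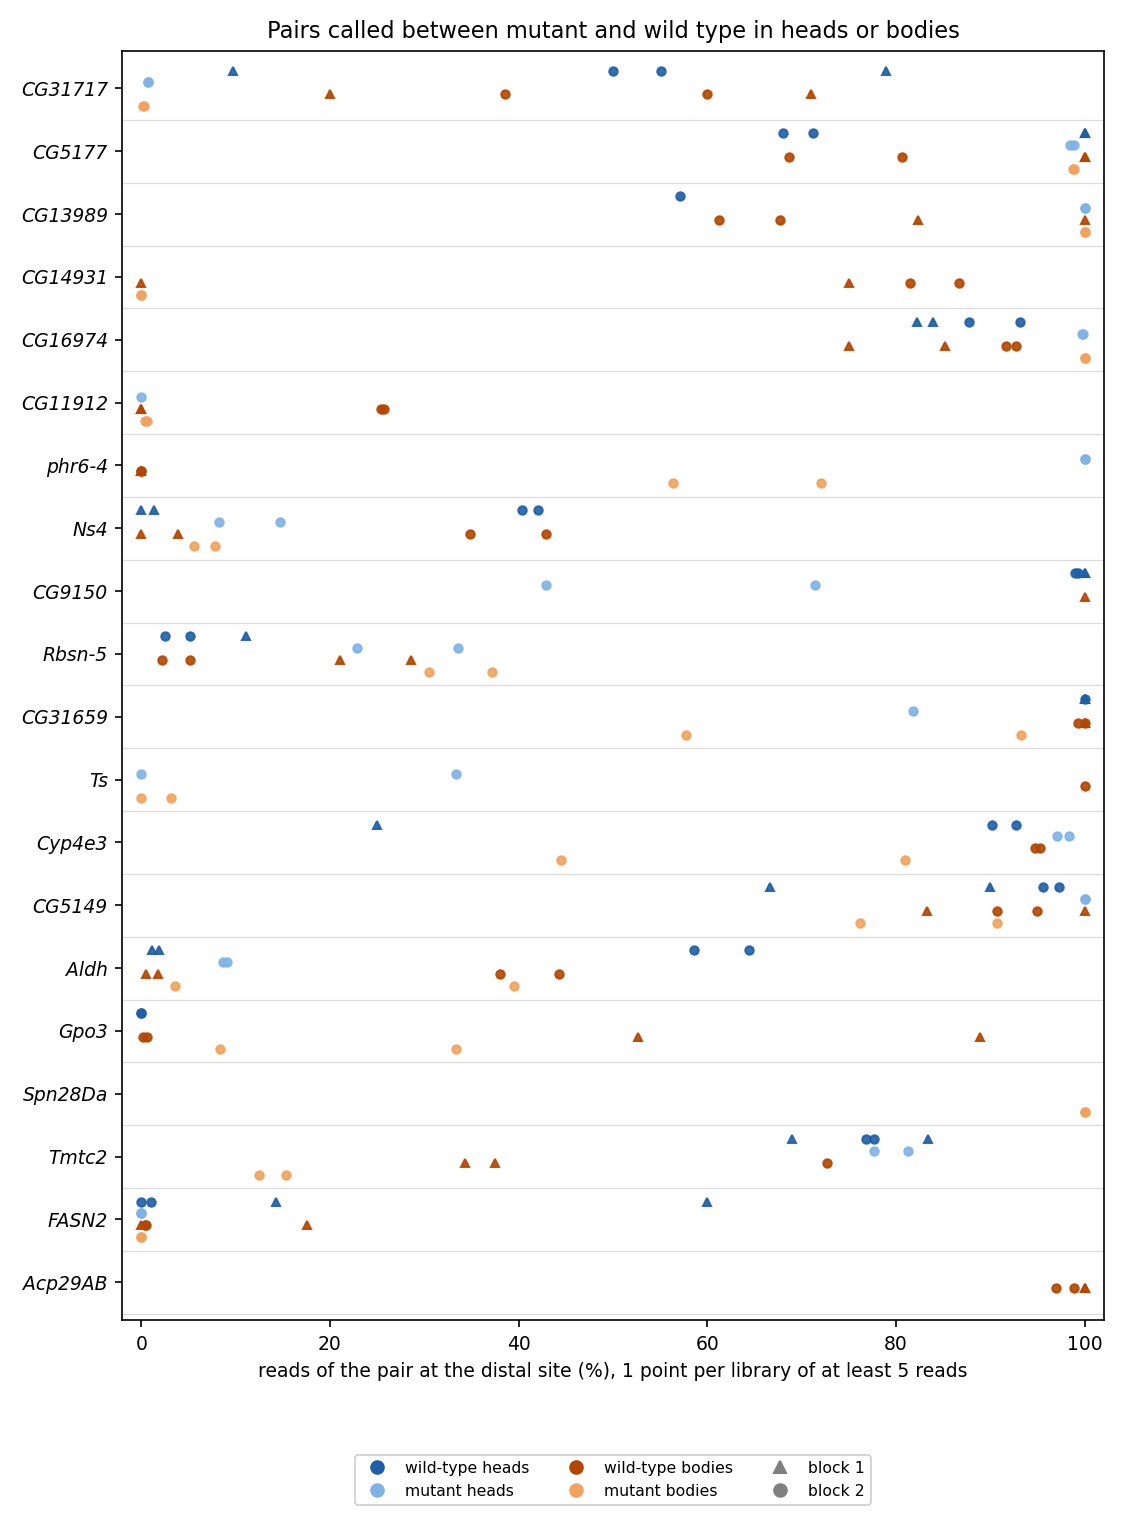
Share of pair reads at the distal site (horizontal axis, %) for the 20 pairs called between mutant and block 2 wild type in heads or bodies, by smallest p from the top, 1 point per library with at least 5 reads. In CG31717 all mutant libraries sit under 1% and in CG5177, Ns4 and Aldh the block 1 wild-type triangles lie apart from the block 2 circles, beyond or beside most of the mutant points.

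Of the 8 head calls and 17 body calls, 5 were shared with the same direction (CG16974, CG31717, CG5177, Ns4 and Rbsn-5), 62.5% of the first and 29.4% of the second list. The groups of the 2 comparisons share no library, but both come from the same fit with a shared spread. The overlap over all pairs was not counted. The wild-type mean of block 1 lay nearer to the mutant than to block 2 for 3 of the 8 head calls (Aldh, CG5177 and Ns4) and 8 of the 17 body calls (CG11912, CG13989, CG14931, CG5177, Gpo3, Ns4, Rbsn-5 and Tmtc2), with no block 1 value for 4 more. By mean CPM the minor site was under 5% for 2 of the head calls (Aldh and CG9150) and 5 of the body calls (Acp29AB, FASN2, Gpo3, Spn28Da and Ts). The body count was 5 and 4 without the wild-type body libraries of replicates 3 and 4, 34 without the first mutant body library and 83 without the second. With each of these 4 left out in turn, the calls of CG13989, CG14931, CG31717 and CG5177 held every time. In CG11912, Ns4, Rbsn-5 and CG31659 the body call was lost without either of the wild-type libraries (adjusted p 0.0751 to 0.268), and in Gpo3 also without the first mutant library (0.135 to 0.281).

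Whether the genotype difference itself differed between tissues was tested as an interaction. No member and no other pair passed by edgeR (0% of 910 pairs, with 11 members and 37 of all pairs at an unadjusted p under 0.05). limma called 0 pairs, and DESeq2 called 2 pairs of which 0 were members. On simulated data this test missed nearly all changes of the sizes drawn, so a count of 0 does not show that the tissues responded alike. The smallest p belonged to Cyp4e3, CG5149 and Tmtc2. Cyp4e3 had 98.3% and 97.1% in mutant heads, 44.4% and 80.9% in mutant bodies, 90.2% and 92.7% in block 2 heads and 95.2% and 94.7% in block 2 bodies (edgeR adjusted p = 0.164). Tmtc2 had 81.3% and 77.6% in mutant heads, 12.5% and 15.4% in mutant bodies, 76.9% and 77.6% in block 2 heads, and 72.7% in the 1 block 2 body library with at least 5 reads (adjusted p = 0.506). CG5149 gave an adjusted p of 0.164. Without the second mutant body library 24 members passed, all 3 of these genes among them (adjusted p = 1.93e-07, 7.69e-05 and 0.0148), and without the first 2 passed, Cyp4e3 (0.00266) and CG5149 (0.0205).

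After Aldh (8568 CPM at the pair) came eEF2, a translation elongation factor, with 1979 CPM. eEF2 used its distal site for 33.1%, 28.4%, 20.1% and 21.7% in wild-type heads and 32.3%, 23%, 19% and 17.1% in bodies, and for 26.6%, 31.5%, 12.2% and 30.5% in the mutant heads and bodies. Its tissues overlapped and it was not called in any comparison.

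Cyt-c-d, the testis-linked cytochrome c, had 1705 CPM, nearly all in bodies. There the distal share was 1.11%, 0.655% and 0.390% in wild-type replicates 1, 3 and 4, and 0.0548% and 0.333% in the mutant. Replicate 2 gave 57.1% from 7 reads, and the mean of shares by which this pair passed the 5% minimum rests on that library. Trx2, a thioredoxin, had 1576 CPM and 92.3% to 96.2% distal use in wild-type heads, 92.8% to 95.8% in bodies and 88.6% to 95.1% in the mutant.

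CG6870 (1403 CPM) was mostly a head transcript and stayed proximal, with a distal share of 13.3%, 19.6%, 5.32% and 5.47% in wild-type heads. Skadu (1243 CPM) had 12242 and 1368 reads in block 1 bodies, none of them distal, and 27 and 44 in block 2 bodies with 18.5% and 9.09%. Eaat1, the glial glutamate transporter, had 1091 CPM and the widest gap between blocks among these. Its distal share was 28.6% and 26.6% in block 1 heads and 98% and 98.3% in block 2 heads, 26.9% and 20.8% against 96.6% and 96.6% in bodies, and 97.7%, 97.1%, 84.8% and 95.6% in the mutant. eIF4A, with 1008 CPM, rose in heads from 39.1%, 38%, 19.5% and 26.6% in bodies to 60.1%, 58.2%, 54.2% and 55.9% (1.63, SE 0.43, edgeR adjusted p = 0.0275, 0.112 to 0.133 when any library of replicates 3 or 4 was left out).

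By function the members were mixed. The gene lists were sets of symbols or symbol patterns, so the counts by list cover the listed genes only. Among translation factors both pairs on 2L were members (eEF2 and eIF4A), and 1 of 2, eIF4A, rose in distal use in heads in each genotype (in the mutant with an edgeR adjusted p of 0.0274, and of 0.146 and 0.153 without either head library). Of 8 vesicle traffic pairs 3 were members, Rab14, Syx5 and Rab30, of which 1 was called in wild type and 2 in the mutant (Rab14 and Syx5), each with more distal use in heads. Counts of 1 or 2 among 2 or 3 genes say nothing of a list beside backgrounds of 17.6% and 25.9% of all pairs. Syx5, a Golgi SNARE, had 68.2% and 57.1% in mutant heads and 32.9% and 28% in mutant bodies (1.95, SE 0.62, edgeR adjusted p = 0.0302, 0.0868 and 0.236 without the head libraries). In wild type it had 82.6%, 0%, 54.5% and 56.4% in heads and 57.7%, 0%, 38.6% and 41.3% in bodies. Rab30 had too few head reads to compare, with at most 9 per library.

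Syx5, osi and Tig were the 3 members in which the libraries of wild-type replicate 2 used the distal site for under 10% in both tissues while those of replicate 1 used it for over 50%. osi had 0% and 5.88% in replicate 2 and 88.5% and 91.6% in replicate 1, and Tig, a ligand of muscle integrins, 3.57% and 7.14% against 56% and 58.8%. The genes were chosen by these values, so the pattern is a description.

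Of the other lists no member was called between tissues, at counts too small to set against the background. Prosalpha6T, Sfp24Ba, Acp29AB and Vha68-3 had 4, 2, 5 and 11 reads over the 4 wild-type head libraries, so heads could not be compared there. The lists held 2 mitochondrial ribosomal proteins of 4 pairs on 2L (mRpS18B, with a distal share of 2.02 ± 1.82% in wild-type bodies, and mRpL48), 1 of 5 respiratory chain pairs (Cyt-c-d), the 1 proteasome pair (Prosalpha6T), 1 of 3 proton pump pairs (Vha68-3, 3.13 ± 3.08% in wild-type bodies) and 1 of 6 neuronal pairs (Eaat1). Of 7 pairs of cleavage, polyadenylation and RNA-binding regulators 2 were members. x16, a splicing factor, had 12.8 ± 13.7% in wild-type heads and 7.77 ± 7.20% in bodies, and Clp, the fly homolog of a cleavage and polyadenylation factor subunit, 15.7 ± 8.91% and 11.03 ± 5.40% (n = 4 each). Of the 2 members on the male germline and accessory gland list Sfp24Ba was not called and Acp29AB was called in bodies, as above. The members Sfp24Bc and Sfp33A2 were not on that list. The lists of cytosolic ribosomal protein (1 pair on 2L), chromatin and transcription (3), muscle (3) and phototransduction (1) genes had no member. These lists were not complete. RpLP1, with sites 199 nt apart, was not counted, and the members Dref and Nf-YB were not on the chromatin and transcription list.

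The closest pairs were Nepl9 (29 nt), CG9150 (32 nt) and CG9962 (32 nt), and the farthest CG5953 and eIF4A (149 nt) and Atg4a (148 nt). Just outside lay Cda5 (150 nt), CG3515 (152 nt) and CG13116 (153 nt). Nepl9 had 68.4 ± 12.3% distal use in wild-type heads and 76.0 ± 11.3% in bodies (n = 3 each), CG5953 84.8 ± 12.2% and 88.6 ± 7.02% and Atg4a, a protease of autophagy, 26.4 ± 9.29% and 31.6 ± 9.81% (n = 4 each). Cda5, a chitin deacetylase, had 84.9 ± 10.1% and 80.9 ± 16.5%. RanGAP also had a distance of 32 nt. CG9962 had hardly any head reads and 37.6 ± 12.4% in wild-type bodies (n = 4). CG3515 had 76.3 ± 10.2% in wild-type bodies and CG13116 used the distal site for 98.9% or more on average in each group.

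Within the set the tissue change hardly followed the distance. Spearman's rho between distance and log2 change was 0.06 over the 276 members in wild type and 0.06 in the mutant, and 0.29 and 0.25 over the 465 farther pairs, across genes that share the same libraries. In wild type 1 of 44 pairs under 60 nt, 6 of 92 from 60 to under 100 nt and 10 of 140 from 100 to under 150 nt were called, with median log2 changes of 0.12, 0.29 and 0.48. Beyond the limit 83 of 404 pairs under 1000 nt (median 1.24) and 27 of 61 of 1000 nt or more (2.84) were called. In the mutant the counts were 1, 13 and 23 within the set and 117 and 36 beyond it. Differences between these bins were not tested.

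**Figure D5:**
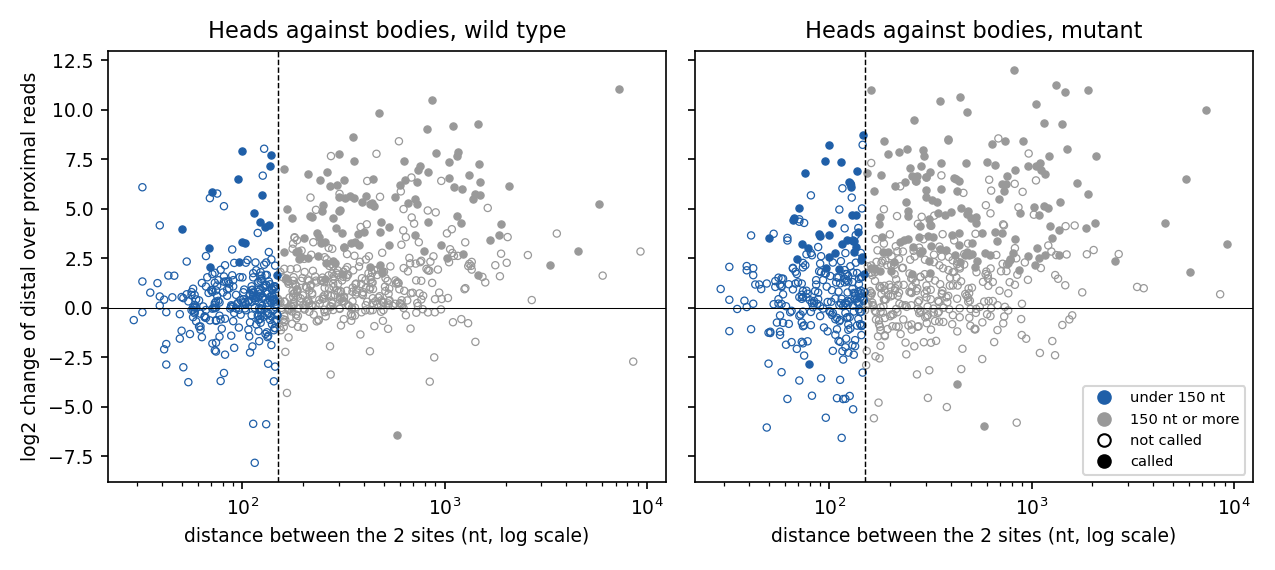
Log2 change of distal over proximal reads between heads and bodies (vertical axis) by the distance between sites (horizontal axis, log scale), for the 741 pairs of 2L in wild type (left) and mutant (right). Blue points are the 276 pairs under 150 nt, grey points the farther pairs, and filled points were called. Median changes are 0.40 in wild type and 0.71 in the mutant over the blue points and 2.84 and 3.92 over grey points of 1000 nt or more.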

How the data were processed

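Each deposited file held the authors' raw read counts per genomic position, with chromosome and strand and no gene names or normalization. Per the submitters' processing notes, reads were aligned with Bowtie2 to BDGP5, while tail filters and which libraries used 3'READS or 3'READS+ are not stated. The annotation was Ensembl's for BDGP6, and no coordinate was converted: on 2L up to 22258266 and 3L up to 4919025, 61.7% and 57.5% of the positions holding 200 or more pooled reads were no more than 10 nt from an annotated end (0.256% and 0.227% after a shift), and genes were named only there. Strand was used. Reads in 1 gene body, or within 1000 nt past the nearest gene end, were assigned (91.8%), and those in overlapping genes (7.45%) or elsewhere (0.729%) were left out. Sites joined within 24 nt had a read-weighted median width of 140 nt. The joining ran from each position to the next, so cuts farther apart than 24 nt were merged where scattered reads bridged them. Proximal sites of members were up to 273 nt wide. How reads of near-identical copies were placed is not stated.

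CPM used TMM factors over named genes. Distal and proximal counts of 910 pairs (2L and 3L) entered as 2 columns per library, with each library a term, in edgeR 4.0.16 (R 4.3.3), quasi-likelihood test, Benjamini-Hochberg at 0.05. The wild-type fit used 8 libraries with the block as a term, and the others the 8 libraries of block 2. limma 3.58.1 (0.5 reads added), DESeq2 1.42.0, Python 3.11.15, pandas 2.3.3 and numpy 2.4.6 were also used. Limits from 0 counts use 3 counts over a group. The edgeR step was tested on simulated data, where the interaction had little power. Of 100 changes of log2 size 2 it recovered 28 between tissues in wild type, 10 between tissues in the mutant, and 5 and 3 between genotypes in heads and bodies. At size 4 these were 73, 48, 43 and 39 of 100.

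Same-numbered wild-type heads and bodies deviated together from their group means (r = 0.85, 0.90, 0.89 and 0.88 over 355 pairs), but crossed numbers in block 2 gave 0.88 as well. Around the means of the blocks r was 0.79 in block 1 and 0.04 in block 2, so the data show pairing in block 1 only, and the labels state none. Alternatives were other tools, filters, joining distances, distance limits, blocks and leaving out each library. The members, gene lists and tests were chosen with earlier results of these data known. Named were up to 10 called members per direction in wild type with a difference of at least 5 percentage points, up to 5 per direction elsewhere by smallest p (or the 3 smallest if none was called), the 8 with most reads, the 3 closest, 3 farthest and 3 just outside, and up to 3 of each list. Shares of members with the canonical poly(A) signal were planned but not run, since no genome sequence was used here.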

Additional observations from a re-analysis of the deposited data

Results flagged for a closer look

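In 9 of 65 wild-type groups of 4 libraries examined for the named members, 1 library lay far from the other 3, where chance flags about 1 group in 20. The body library of replicate 2, the one with the fewest reads, was the far one in 4 of them: Cyt-c-d at 57.1% distal use (others 0.390% to 1.11%), Prosalpha6T at 60% (6.93% to 13.7%), Sfp24Ba at 25% (97% to 100%) and Vha68-3 at 7.69% (1.15% to 2.23%), from 5 to 13 reads each. CG14931 was at 0% in the body library of replicate 1 (9 reads; others 75% to 86.7%). CG31659 was at 99.3% in that of replicate 3 where the others had 100%. In heads, Trx2 was at 92.3% in replicate 1 (others 96% to 96.2%), mRpS18B at 13.6% in replicate 1 (1.80% to 3.13%) and mRpL48 at 14.3% in replicate 2 (0% to 2.30%). What set these libraries apart was not tested.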

How the results depend on the processing

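The head against body count in wild type (17 members) was 36 with limma (28 with more and 8 with less distal use in heads), 7 under a limit of 100 nt and 26 under 200 nt, 5 without a term for the block, 0 in block 1 alone, 50 in block 2 alone and 9 to 21 with 1 library left out. The mutant against wild type count in heads (8) was 5 with no minimum mean, 5 with a minor site of at least 10%, 14 with positions joined within 12 nt, 1 under 100 nt, 45 with heads alone and 3 to 4 with 1 library left out. In bodies (17) it was 27 with 12 nt, 10 under 100 nt and 4 to 83. The head against body count in the mutant (37) was 72 with limma (56 and 16), 14 under 100 nt and 17 to 82, and the interaction count (0) was 0 to 24. DESeq2 gave like totals with another split of directions, as described. The number of pairs (276) was 440 with 12 nt and 136 under 100 nt. With the minor-site minimum by mean CPM it was 225, of which 215 were among the 276. The median distal share was 52.5% and 52.6% in mutant heads and 39.7% and 38.3% in mutant bodies with 12 nt and with positions under 5 pooled reads removed. For single genes, 513 of 610 alternative values kept their direction and side of the threshold, 85 lost it, 5 gained it and 7 reversed.

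Blocking on the replicate number gave a wild-type tissue count of 52, and of 26 within the 4 mutant libraries. With all 12 libraries and a replicate block, which pairs mutant with wild-type libraries that share only a number and lie in different blocks for replicates 1 and 2, the genotype counts were 57 in heads and 71 in bodies. There the log2 change reversed to -5.89 (CG5177), 3.03 (Ns4) and 2.56 (Aldh) in heads and -6.09 (CG5177), -3.00 (Gpo3) and 1.86 (Ns4) in bodies. With all 12 libraries and no replicate block the counts were 0 and 1, and Ns4 in heads was at 0.040. The mutant numbers did not pair head with body (r = -0.03). The minor-site minimum by mean CPM was an alternative chosen after seeing the data. The counts of members with a canonical signal at either site were not run. Pairs with few reads limit what can be seen: 43 members had no wild-type head library with 5 reads.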
